A study of Sus scrofa with 11 samples.

Results

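The genes described here encode 9 enzymes on the route from glucose to lactate and 1 enzyme that regulates it. They are hexokinase 2 (HK2), glucose phosphate isomerase (GPI), muscle phosphofructokinase (PFKM), the phosphofructokinase regulator PFKFB3, triose phosphate isomerase (TPI1), glyceraldehyde phosphate dehydrogenase (GAPDH), muscle phosphoglycerate mutase (PGAM2), beta enolase (ENO3), pyruvate kinase M (PKM) and lactate dehydrogenase A (LDHA). Members were taken by gene symbol, and all 10 symbols had exactly 1 of the 25322 gene rows. RNA came from the longissimus lumborum, a back muscle, of female pigs aged 23 weeks. In the 7 fibre1 pigs type I fibres, which are slow and oxidative, exceeded 17% and type IIB fibres, which are fast and glycolytic, stayed under 70%. In the 4 fibre2B pigs type I fibres stayed under 8% and type IIB fibres exceeded 70%. The labels name no treatment, and each library is a separate animal. The comparison asks whether transcripts of glycolytic enzymes differ in level between these kinds of muscle.

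Glycolysis splits glucose into pyruvate in the cytosol and yields ATP without oxygen. Hexokinase traps glucose, phosphofructokinase commits it, and pyruvate kinase releases pyruvate at the end. Lactate dehydrogenase then regenerates the cofactor that GAPDH needs. Fast glycolytic fibres are known for high activities of phosphofructokinase, pyruvate kinase and lactate dehydrogenase. Skeletal muscle uses its own forms of several glycolytic enzymes, encoded by PFKM, PGAM2 and ENO3. In bulk muscle, fewer cells of a type and less RNA per cell cannot be told apart.

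Total counts ran from 14832736 to 36374829 per pig. Fibre1 pigs 5 and 6 stood apart, with TMM scaling factors of 0.718 and 0.779 against 0.959 to 1.19 in the other 9 pigs, and the log2 fold changes of the 10 genes and their summed share are given without them as well. Skeletal muscle fibre markers were abundant: 5 of 10 listed markers had a row (ACTA1, NEB, MYL11, TNNC2 and DES), and together they took 145642 to 300371 CPM in fibre1 pigs and 141067 to 166505 CPM in fibre2B pigs. CPM are read counts scaled by library size, here with TMM factors. They are not per length, so differences between genes in CPM or counts are not read as differences in transcript number. Fold changes are given as log2 values of fibre1 minus fibre2B with their SE, from edgeR's quasi-likelihood test with Benjamini-Hochberg adjustment over all 11329 genes tested.

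None of the 10 genes passed an adjusted p of 0.05 in that test, where 9.01% of all genes tested passed (4.38% higher and 4.63% lower in fibre1). All 10 were abundant enough to be tested, and their adjusted p values ran from 0.085 to 0.851. At an unadjusted p under 0.05 there were 2, PKM and PFKFB3, where 28.9% of all genes lay under it. DESeq2 passed 1 gene, PKM, where 1740 of the 11329 genes tested passed with it. Limma-voom passed 0 of the 10, where 863 of all genes passed, and 0 with quality weights, where 1748 did. The groups overlapped in all 10 genes, where 7.55% of genes tested had groups that did not overlap. The log2 fold change was positive for 9 genes, all but PFKFB3, and the median was 0.36, against 0.01 over all genes tested, of which 50.7% were positive. Without fibre1 pigs 5 and 6 the median was 0.10 and 7 of the 10 were positive. With library totals in place of TMM factors, which shifts the median of all genes by -0.19, it was 0.14 and also 7.

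**Figure D1:**
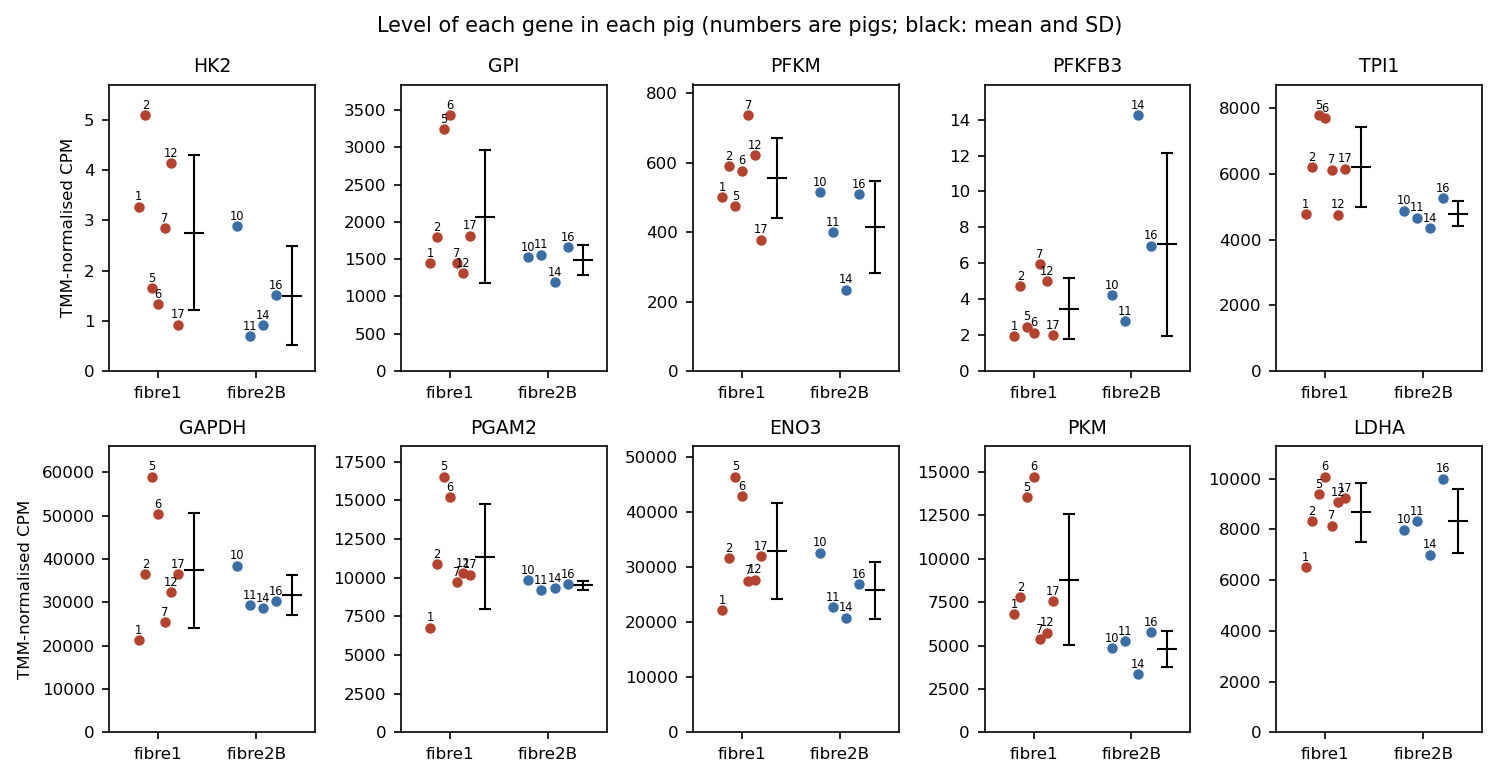
TMM-normalised CPM (vertical axes, each from 0) of the 10 genes in each fibre1 (left) and fibre2B (right) pig; numbers are pig numbers and black marks are the mean and SD. Pigs 5 and 6 are the 2 highest fibre1 pigs for GPI, TPI1, GAPDH, PGAM2, ENO3, PKM and LDHA, and the groups overlap in every gene.

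At the first steps the coefficient of variation within fibre1 was 56.1% for HK2, 42.9% for GPI, 20.8% for PFKM and 49.2% for PFKFB3. Within fibre2B it was 65.9% for HK2, 13.6% for GPI, 31.8% for PFKM and 72.3% for PFKFB3. At a later step it was 42.9% for PKM in fibre1 and 21.7% in fibre2B. HK2 (ENSSSCG00000008261), the insulin-responsive hexokinase of muscle, was rare, with 16 to 161 counts per pig. It had a lowest level of 0.920, a median of 2.85 and a highest of 5.09 CPM in fibre1, against 2.89, 0.694, 0.908 and 1.51 CPM in fibre2B pigs 10, 11, 14 and 16. Fibre2B pig 10 lay just above the fibre1 median, and fibre1 pigs 6 and 17 lay below fibre2B pig 16. Fibre1 averaged 2.75 ± 1.54 CPM and fibre2B 1.50 ± 0.988 CPM (SD, n = 7 and n = 4), which gave a log2 fold change of 0.88 ± 0.49 (edgeR adjusted p = 0.249). It was 1.12 without fibre1 pigs 5 and 6 (adjusted p = 0.212) and 1.42 without fibre2B pig 10 (adjusted p = 0.124).

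GPI (ENSSSCG00000002873) converts glucose 6-phosphate to fructose 6-phosphate. Its levels were 1316 (lowest), 1793 (median) and 3432 CPM (highest) in fibre1, against 1524, 1561, 1194 and 1660 CPM in fibre2B pigs 10, 11, 14 and 16. Pigs 5 and 6 had 3247 and 3432 CPM, well above the next fibre1 pig, and the other fibre1 pigs mixed with or lay just above the fibre2B pigs. Means were 2071 ± 888 CPM for fibre1 and 1485 ± 202 CPM for fibre2B (SD, n = 7 and n = 4). A log2 fold change of 0.48 ± 0.28 (edgeR adjusted p = 0.279) became 0.08 without those 2 pigs (adjusted p = 0.808).

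PFKM (ENSSSCG00000021129), the muscle form of the committing enzyme, had 378 (lowest), 578 (median) and 737 CPM (highest) in fibre1, against 517, 399, 235 and 510 CPM in fibre2B pigs 10, 11, 14 and 16. The lowest value was that of fibre2B pig 14, and 3 fibre2B pigs lay within the fibre1 range. Means were 555 ± 115 CPM for fibre1 and 415 ± 132 CPM for fibre2B (SD, n = 7 and n = 4). The log2 fold change was 0.42 ± 0.23 (edgeR adjusted p = 0.239), 0.45 without fibre1 pigs 5 and 6 and 0.23 without fibre2B pig 14 (adjusted p = 0.537).

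PFKFB3 (ENSSSCG00000011133) makes fructose 2,6-bisphosphate, a strong activator of phosphofructokinase, and was the 1 gene of the 10 with a negative value. It had 1.96 (lowest), 2.47 (median) and 5.97 CPM (highest) in fibre1, against 4.22, 2.77, 14.2 and 6.98 CPM in fibre2B pigs 10, 11, 14 and 16. Fibre2B pigs 14 and 16 lay above all fibre1 pigs, and pigs 10 and 11 lay within the fibre1 range. Fibre1 averaged 3.47 ± 1.71 CPM and fibre2B 7.06 ± 5.10 CPM (SD, n = 7 and n = 4), which gave a log2 fold change of -1.001 ± 0.42 (edgeR adjusted p = 0.140). It was -0.82 without fibre1 pigs 5 and 6 (adjusted p = 0.329) and -0.40 without fibre2B pig 14 (adjusted p = 0.585).

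**Figure D2:**
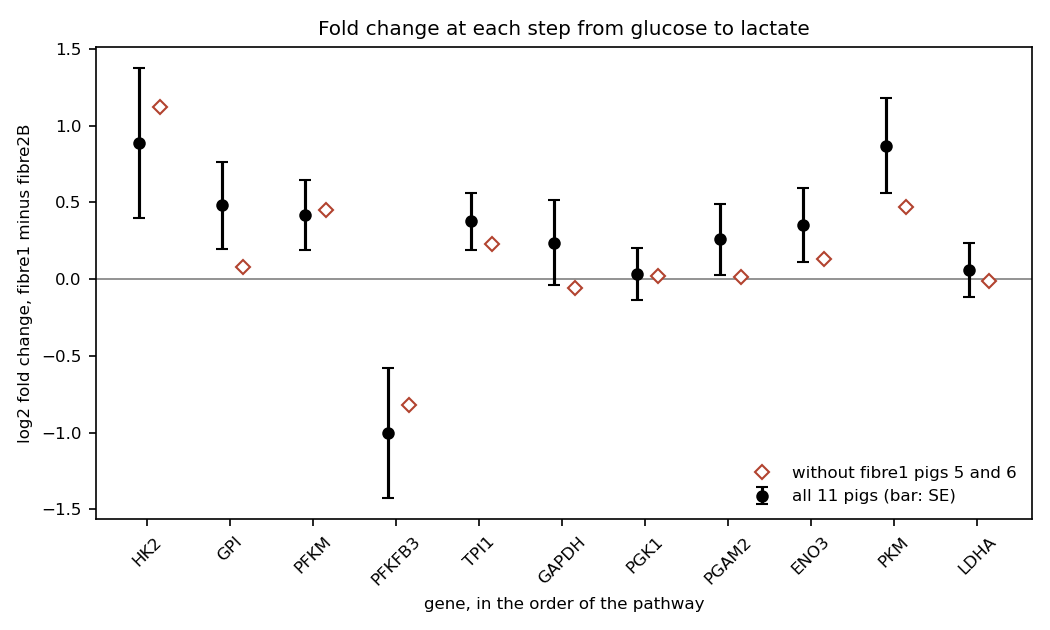
Log2 fold change, fibre1 minus fibre2B (vertical axis), of the 10 genes and PGK1 in the order of the pathway, with all 11 pigs (black, bar: SE) and without fibre1 pigs 5 and 6 (open diamonds). PKM and HK2 have the highest values with all pigs (0.87 and 0.88) and PFKFB3 the lowest (-1.001), while without those 2 pigs GPI, GAPDH and PGAM2 lie at 0.08, -0.06 and 0.01. PGK1, which is not among the 10, is drawn in its place in the pathway.

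In the triose steps TPI1 (ENSSSCG00000000685), which interconverts the triose phosphates, had 4766 (lowest), 6163 (median) and 7795 CPM (highest) in fibre1, against 4885, 4670, 4352 and 5261 CPM in fibre2B pigs 10, 11, 14 and 16. Fibre1 pigs 1 and 12 lay within the fibre2B range and the other 5 fibre1 pigs lay above every fibre2B pig. Fibre1 averaged 6224 ± 1216 CPM and fibre2B 4792 ± 382 CPM (SD, n = 7 and n = 4). This gave a log2 fold change of 0.38 ± 0.19 (edgeR adjusted p = 0.195), and 0.23 without fibre1 pigs 5 and 6 (adjusted p = 0.409). It was 0.43 without fibre1 pig 1.

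GAPDH (ENSSSCG00000000694), which is often used as a reference gene, had 21307 (lowest), 36517 (median) and 58963 CPM (highest) in fibre1, against 38466, 29363, 28685 and 30234 CPM in fibre2B pigs 10, 11, 14 and 16. The spread within fibre1 was wide, with a coefficient of variation of 35.6% there and 14.4% in fibre2B, and the fibre1 range enclosed the fibre2B range. Means were 37368 ± 13310 CPM for fibre1 and 31687 ± 4564 CPM for fibre2B (SD, n = 7 and n = 4). Its log2 fold change was 0.24 ± 0.28 (edgeR adjusted p = 0.594). Leaving out each pig in turn gave from 0.09 (without fibre1 pig 5) to 0.34 (without fibre2B pig 10), and 0.34 without fibre1 pig 1. The sign flipped with library totals alone (-0.02), which shift the median of all genes by -0.19. It also flipped without fibre1 pigs 5 and 6 (-0.06), so no direction is given for GAPDH.

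PGK1 (ENSSSCG00000012440), phosphoglycerate kinase, is not among the 10 but stands between GAPDH and PGAM2. It had 2649 (lowest), 3111 (median) and 3626 CPM (highest) in fibre1, against 3446, 2771, 2406 and 3787 CPM in fibre2B pigs 10, 11, 14 and 16. Its log2 fold change was 0.03 ± 0.17 (edgeR adjusted p = 0.917), and it was below 0 with library totals (-0.16), upper-quartile factors (-0.006) and quality weights (-0.02). Aldolase A, the other step missing from the list, was not analysed here.

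PGAM2 (ENSSSCG00000016720), the muscle mutase, had 6774 (lowest), 10280 (median) and 16534 CPM (highest) in fibre1, against 9835, 9206, 9353 and 9604 CPM in fibre2B pigs 10, 11, 14 and 16. The 4 fibre2B pigs were close together, with a coefficient of variation of 2.92% against 29.6% in fibre1. Fibre1 pig 1 lay below them and the other 6 fibre1 pigs lay above or among them. Means were 11371 ± 3368 CPM for fibre1 and 9499 ± 278 CPM for fibre2B (SD, n = 7 and n = 4). A log2 fold change of 0.26 ± 0.23 (edgeR adjusted p = 0.481) was 0.01 without fibre1 pigs 5 and 6 and 0.35 without fibre1 pig 1.

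ENO3 (ENSSSCG00000017904), the enolase of adult muscle, had 22123 (lowest), 31636 (median) and 46379 CPM (highest) in fibre1, against 32600, 22658, 20810 and 26927 CPM in fibre2B pigs 10, 11, 14 and 16. Fibre1 pigs 5 and 6 were again the highest and the rest mixed with the fibre2B pigs. Means were 32878 ± 8704 CPM for fibre1 and 25749 ± 5236 CPM for fibre2B (SD, n = 7 and n = 4). The log2 fold change was 0.35 ± 0.24 (edgeR adjusted p = 0.349), and 0.13 without those 2 pigs (adjusted p = 0.713). It was 0.43 without fibre1 pig 1.

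Of the 10 genes the last enzymes of the route, PKM and LDHA, had the lowest and the highest p. PKM (ENSSSCG00000001930), which makes pyruvate, had 6813, 7785, 13549, 14717, 5357, 5743 and 7543 CPM in fibre1 pigs 1, 2, 5, 6, 7, 12 and 17, against 4850, 5242, 3352 and 5790 CPM in fibre2B pigs 10, 11, 14 and 16. Fibre1 pigs 7 and 12 lay below fibre2B pig 16, and the other 5 fibre1 pigs lay above every fibre2B pig. Fibre1 averaged 8787 ± 3771 CPM and fibre2B 4809 ± 1045 CPM (SD, n = 7 and n = 4), which gave a log2 fold change of 0.87 ± 0.31 (edgeR adjusted p = 0.085). With DESeq2 PKM passed (0.89, adjusted p = 0.023), which no other setting gave. Without fibre1 pigs 5 and 6 it had 0.47 (edgeR adjusted p = 0.191), and over all alternatives the log2 fold change lay between 0.47 and 0.98.

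LDHA (ENSSSCG00000013366), the muscle subunit of the enzyme that turns pyruvate into lactate, had 6499 (lowest), 9057 (median) and 10071 CPM (highest) in fibre1, against 7982, 8321, 7004 and 9995 CPM in fibre2B pigs 10, 11, 14 and 16. The fibre1 range enclosed the fibre2B range. Fibre1 averaged 8668 ± 1157 CPM and fibre2B 8326 ± 1245 CPM (SD, n = 7 and n = 4), which gave a log2 fold change of 0.06 ± 0.18 (edgeR adjusted p = 0.851). Its sign flipped with library totals (-0.15), with quality weights (-0.03), without fibre1 pigs 5 and 6 (-0.01) and without fibre2B pig 14 (-0.008).

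PKM and LDHA act one after the other, and their counts were also set against each other within each pig. This ratio does not depend on scaling between pigs and was added after seeing the data. There were 105, 93.6, 145, 146, 65.8, 63.4 and 81.8 PKM counts per 100 LDHA counts in fibre1 pigs 1, 2, 5, 6, 7, 12 and 17, against 60.8, 63.0, 47.9 and 57.9 in fibre2B pigs 10, 11, 14 and 16. All fibre1 pigs lay above all fibre2B pigs, but pig 12 of fibre1 and pig 11 of fibre2B almost met. Fibre1 averaged 100.02 ± 34.2 and fibre2B 57.4 ± 6.68 (SD, n = 7 and n = 4), which differ by 42.6, and by 24.5 without fibre1 pigs 5 and 6. This is a description with no test, since the pair was picked with its values in view. PKM and LDHA had the lowest and the highest p of the 10 genes. No ratio of another pair was made, so how often a pair of genes separates the groups is not known.

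**Figure D3:**
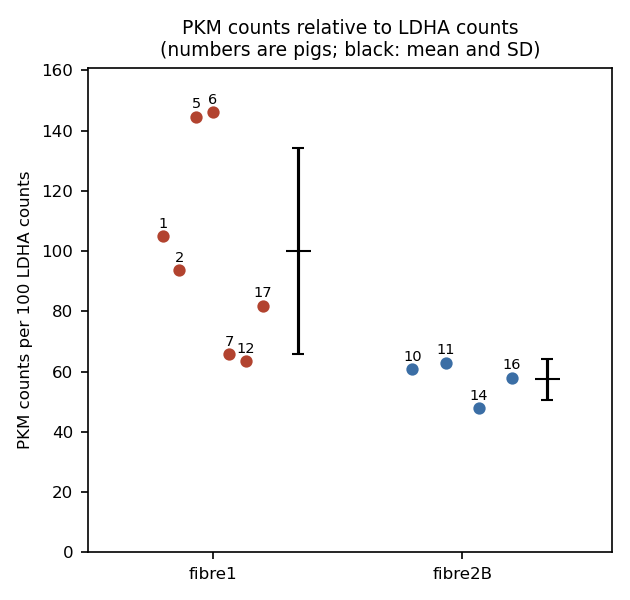
PKM counts per 100 LDHA counts (vertical axis, from 0) in each fibre1 (left) and fibre2B (right) pig; numbers are pig numbers and black marks are the mean and SD. Fibre1 pigs lie between 63.4 and 146 and fibre2B pigs between 47.9 and 63.0.

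The abundant enzymes took a large part of each library. Together the 10 genes held 7.23% to 11.3% of all counts in fibre1 pigs, with a median of 10.02%, against 9.91%, 9.27%, 8.91% and 9.79% in fibre2B pigs 10, 11, 14 and 16. Fibre1 pig 1 had the lowest share of all pigs and fibre1 pigs 5 and 6 the highest (11.2% and 11.3%). Fibre1 averaged 9.96 ± 1.35% and fibre2B 9.47 ± 0.466% (SD, n = 7 and n = 4), and this gap of 0.487 points is smaller than the SD within fibre1. Its size moved with single pigs: it was 0.943 points without fibre1 pig 1, 0.276 without pig 5, 0.266 without pig 6 and 0.300 without fibre2B pig 14. Without fibre1 pigs 5 and 6 together its sign turned, at 9.44 ± 1.24% in fibre1 and 9.47 ± 0.466% in fibre2B (SD, n = 5 and n = 4), a gap of -0.0315 points. It was 0.248 points with mitochondrially encoded genes left out of the total. GAPDH and ENO3 held 61.8% to 70.6% of the counts on the 10 genes.

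**Figure D4:**
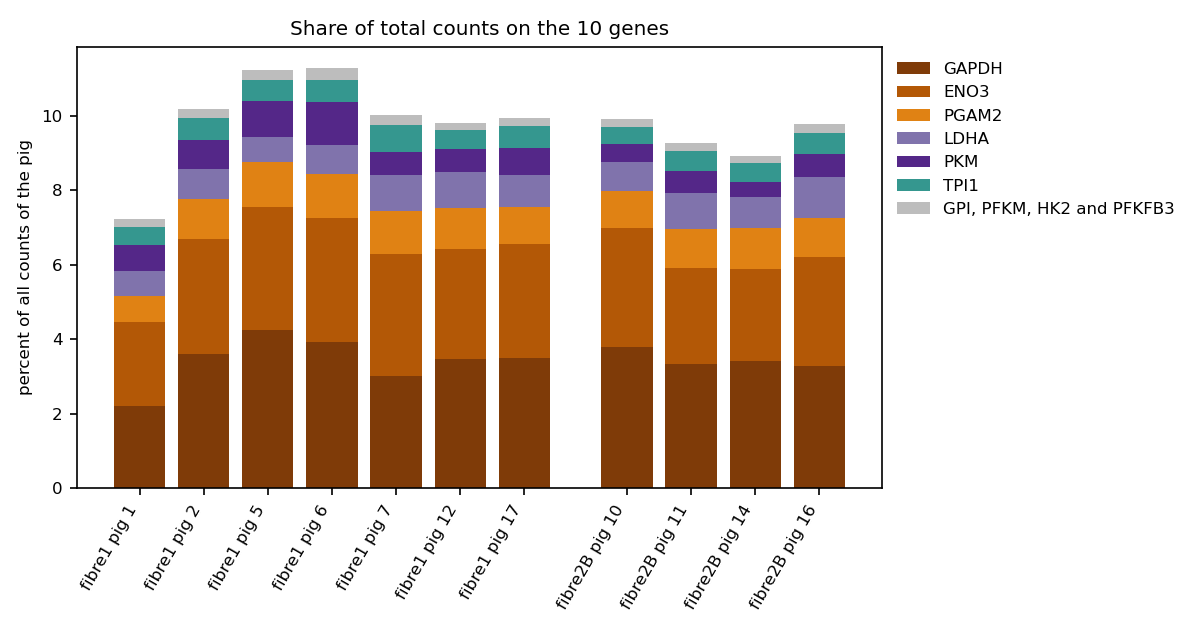
Percent of all counts of a pig (vertical axis, from 0) that fell on the 10 genes, stacked by gene, for the 7 fibre1 pigs (left) and the 4 fibre2B pigs (right). GAPDH and ENO3 form the 2 lowest and tallest parts, and fibre1 pig 1 has the shortest column at 7.23%.

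Gene by gene, GAPDH took 3.42 ± 0.661% of all counts in fibre1 pigs, against 3.46 ± 0.226% in fibre2B pigs (SD, n = 7 and n = 4). That of ENO3 was 3.05 ± 0.369% in fibre1 and 2.80 ± 0.337% in fibre2B. PGAM2 held 1.05 ± 0.173% in fibre1 and 1.04 ± 0.0583% in fibre2B. For these 3 genes the means differed by less than the SD within either group. LDHA held 0.823 ± 0.124% in fibre1 and 0.913 ± 0.134% in fibre2B. TPI1 held 0.584 ± 0.0779% in fibre1 and 0.525 ± 0.0377% in fibre2B. PKM held 0.794 ± 0.195% in fibre1, from 0.613% to 1.15%, and 0.526 ± 0.107% in fibre2B, from 0.398% to 0.630%, so its groups met only in the lowest fibre1 and highest fibre2B pigs; without fibre1 pigs 5 and 6 the fibre1 mean was 0.687 ± 0.0622% (SD, n = 5). The 95% Wilson interval of any pig's share reached at most 0.0145 percentage points to either side, which covers counting error only.

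Muscle forms were next set against their sister isozymes, as a percentage of each enzyme family's counts per pig. The test was an exact permutation test, two-sided, over the 330 ways to split the pigs, with adjustment over 5 families. PGAM2 held 99.97 ± 0.0181% of phosphoglycerate mutase counts in fibre1 pigs, against 99.94 ± 0.00156% in fibre2B pigs (SD, n = 7 and n = 4; exact p = 0.0455, adjusted p = 0.227). The remainder is PGAM1, the form of most other tissues, whose level was 3.35 ± 1.51 CPM in fibre1 pigs, against 5.26 ± 0.181 CPM in fibre2B pigs (log2 fold change -0.64 ± 0.28, edgeR adjusted p = 0.148). PGAM1 lay at 2.03 to 2.84 CPM in fibre1 pigs 1, 2, 5, 6 and 17 and at 5.25 and 5.79 CPM in fibre1 pigs 12 and 7, against 5.03 to 5.47 CPM in fibre2B. Limma-voom with quality weights passed PGAM1 (-0.82, adjusted p = 0.033), while without fibre1 pigs 5 and 6 it had -0.48 (edgeR adjusted p = 0.340). The PGAM2 share passed without fibre1 pig 7 (exact permutation, adjusted p = 0.0476), and without fibre1 pigs 5 and 6 the difference was 0.0158 points (exact permutation, adjusted p = 0.635).

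ENO3 held 99.84 ± 0.0461% of enolase counts in fibre1 and 99.84 ± 0.0288% in fibre2B (exact p = 0.939). PFKM held 98.7 ± 0.176% of phosphofructokinase counts in fibre1 and 98.6 ± 0.517% in fibre2B (exact p = 0.630). HK2 held 14.9 ± 5.40% of the counts on HK1, HK2 and HK3 in fibre1 and 11.0 ± 7.59% in fibre2B (exact p = 0.333), from only 207 to 831 counts per pig. PKLR, the pyruvate kinase of liver and red cells, had 1 count in all, so PKM held all but that count in both groups. The exact p of 0.364 there follows only from which group holds the pig with that count, so it cannot compare the groups. ENO3, PFKM and HK2 had adjusted p values from 0.606 to 0.939 in the exact test, with pyruvate kinase still counted among the 5 families of the adjustment. Lactate dehydrogenase was not analysed here as a family.

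The wider pathway was read from 54 further genes, of which 40 had a row and 33 were tested. Of these 33, 1 was higher and 1 lower in fibre1 and 31 did not pass, where 9.01% of all genes tested passed. An unadjusted p under 0.05 was reached by 8 of them, where 28.9% of all genes reached it, and the median log2 fold change was 0.09 with 21 positive. HK1, the hexokinase of most tissues, averaged 10.4 ± 3.06 CPM in fibre1 pigs, against 7.32 ± 0.749 CPM in fibre2B pigs (SD, n = 7 and n = 4; log2 fold change 0.51 ± 0.21, edgeR adjusted p = 0.132). HK3 had a log2 fold change of -0.30 ± 0.30, which was 0.16 without fibre2B pig 14.

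HIF1A, the oxygen-sensitive factor known to switch on glycolytic genes, was the 1 that was lower in fibre1. It had 5.82, 4.30, 4.94, 4.85, 5.88, 5.79 and 5.68 CPM in fibre1 pigs 1, 2, 5, 6, 7, 12 and 17, against 9.13, 5.59, 9.48 and 9.38 CPM in fibre2B pigs 10, 11, 14 and 16. Fibre2B pig 11 lay among the fibre1 pigs and the other 3 were far above them, with a log2 fold change of -0.65 ± 0.17 (edgeR adjusted p = 0.034). Here fibre1 pigs 1, 2, 5 and 6 and fibre2B pigs 10, 14 and 16 each ended the call when left out (adjusted p between 0.0507 and 0.114), with log2 fold changes between -0.68 and -0.58. Leaving out fibre1 pigs 5 and 6 together (-0.61, adjusted p = 0.104) and library totals (-0.83, adjusted p = 0.067) ended it too. The related factor EPAS1 had a log2 fold change of 0.20 ± 0.17, and of 0.10 without fibre2B pig 14.

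Of 23 tested markers of other cells 4 were lower in fibre1, where 4.63% of all genes tested were lower, and 0 were higher. Of the fibroblast list 5 of 6 markers had a row and 4 were tested, and DCN and LUM were lower in fibre1; the summed level lay between 472 and 976 CPM in fibre1 pigs and between 743 and 1437 CPM in fibre2B pigs. Of the blood list 3 of 5 had a row and 2 were tested, and HBB was lower; sums lay between 137 and 467 CPM in fibre1 pigs and between 423 and 955 CPM in fibre2B pigs. Of the smooth muscle and pericyte list 5 of 6 had a row, and KCNJ8 was lower; sums lay between 71.3 and 143 CPM in fibre1 pigs and between 74.8 and 128 CPM in fibre2B pigs. No tested marker of immune cells (4 of 6 with a row), endothelium (3 of 6), adipocytes (2 of 6), cardiac muscle (2 of 5) or liver (3 of 3) passed. Their sums in fibre1 and fibre2B pigs were 4.10 to 13.1 and 9.33 to 20.1 CPM for immune cells, 57.8 to 121 and 60.8 to 104 CPM for endothelium, 1.70 to 6.43 and 1.47 to 5.42 CPM for adipocytes, 4.69 to 274 and 8.28 to 14.9 CPM for cardiac muscle, and 4.47 to 43.2 and 10.9 to 190 CPM for liver. None of the markers with a row was at 0 in every pig. The part of other cells in the HIF1A result was not tested.

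The remaining named genes of the list did not pass in edgeR's test. SLC16A3, which encodes a lactate exporter of glycolytic muscle, averaged 84.9 ± 36.4 CPM in fibre1 pigs, against 62.9 ± 25.7 CPM in fibre2B pigs (SD, n = 7 and n = 4; log2 fold change 0.43 ± 0.34). Its log2 fold change was 0.10 without fibre1 pigs 5 and 6, 0.24 without pig 5 alone, 0.27 without fibre2B pig 14 and 0.74 without fibre2B pig 16. SLC2A12, a glucose transporter gene, had a log2 fold change of -0.51 ± 0.26. FBP2, the muscle fructose bisphosphatase that runs against phosphofructokinase, averaged 903 ± 194 CPM in fibre1 pigs, against 833 ± 210 CPM in fibre2B pigs (log2 fold change 0.12 ± 0.20, but -0.08 with library totals). TIGAR, which lowers fructose 2,6-bisphosphate, had a log2 fold change of -0.15 ± 0.18 (0.02 without fibre2B pig 10). That of ENO1, the enolase of most tissues, was 0.33 ± 0.15. ENO2, the neuronal form, had only 6 to 22 counts per pig (0.06 ± 0.49, but -0.17 with library totals), and ALDOC, the aldolase of brain, had -0.05 ± 0.32.

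Beyond pyruvate, LDHD, the D-lactate dehydrogenase, averaged 20.6 ± 8.88 CPM in fibre1 pigs, against 11.6 ± 3.68 CPM in fibre2B pigs (SD, n = 7 and n = 4). Its log2 fold change was 0.82 ± 0.33 (edgeR adjusted p = 0.121). It passed without fibre1 pig 7, which had the lowest fibre1 level, 7.81 CPM (0.97, edgeR adjusted p = 0.040). MPC2, a subunit of the mitochondrial pyruvate carrier, had a log2 fold change of -0.17 ± 0.16, and of -0.08 without fibre1 pigs 5 and 6. In the glycerol phosphate shuttle, which carries electrons from glycolysis into mitochondria, cytosolic GPD1 had a log2 fold change of 0.27 ± 0.20, which was 0.10 without fibre1 pigs 5 and 6 and 0.16 without pig 5 alone. Mitochondrial GPD2 had -0.42 ± 0.25, which was -0.19 without fibre2B pig 10.

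Correlations between the 10 genes differed from pair to pair. Over the 11 pigs Spearman's rho of log2 CPM, given as a description, was 0.918 between GAPDH and ENO3, 0.891 between PGAM2 and ENO3, and 0.873 between GAPDH and PGAM2. It was 0.855 between GPI and TPI1 and 0.845 between TPI1 and PKM. HK2 had 0.709 with PFKM, 0.082 to 0.273 with TPI1, GAPDH, PGAM2, ENO3 and PKM, and -0.255 with LDHA. PFKFB3 had -0.482 with GPI and -0.573 with PKM. The points share each pig's scaling factor and the group difference. Over the 9 pigs without pigs 5 and 6, GAPDH and ENO3 had 0.85, HK2 and PFKM 0.70, and HK2 had 0.417 with TPI1, 0.283 with GAPDH, 0.55 with PGAM2, 0.40 with ENO3 and 0.50 with PKM. In the same 9 pigs PFKFB3 and PKM had -0.417, and GAPDH and PKM 0.183 where the 11 pigs gave 0.545.

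**Figure D5:**
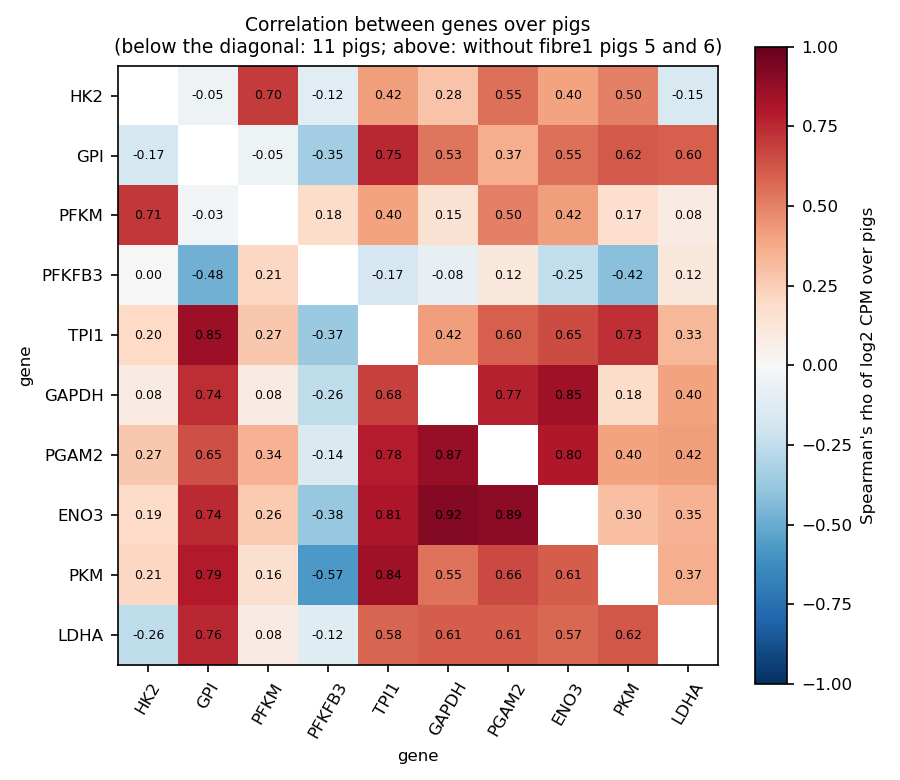
Spearman's rho of log2 CPM between each pair of the 10 genes (colour and printed value), over 11 pigs below the diagonal and over 9 pigs, without fibre1 pigs 5 and 6, above it. GAPDH, PGAM2 and ENO3 have 0.873 to 0.918 among themselves below the diagonal and 0.767 to 0.85 above it, and HK2 has its highest value with PFKM on both sides.

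Among all tested genes with a symbol, those most like a member over the 11 pigs, again as a description, were TPM1 and the member ENO3 for GAPDH (rho 0.918 each), TPM1 for PGAM2 (0.936), MYOZ1 for ENO3 (0.964), UBE2Q1 and KNOP1 for PKM (0.964 each), CARNS1 for TPI1 (0.964), AFTPH for GPI (0.955), NAV2 for HK2 (0.955), ZNF703 for PFKM (0.927) and PDE4B for PFKFB3 (0.936). LDHA had the weakest best match of the 10, ZNRF3 at 0.855.

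The isoform table gave no further transcript with counts for any of the 10 genes. Each had 1 isoform row with counts that matched the gene's counts in all 11 pigs, exactly for 9 genes and within 1 count for TPI1, a tie inferred from the values. The M1 and M2 forms of PKM are therefore not separated in these counts. In edgeR's test on all 12212 isoforms tested 0 of the 10 passed, where 5.39% of isoforms did, and 2 had an unadjusted p under 0.05, where 26.2% of isoforms did. PKM had 0.88 ± 0.32 there (adjusted p = 0.104) and PFKFB3 -1.01 ± 0.44 (adjusted p = 0.172). For each of the 10 gene IDs 0 other IDs had identical counts, but GAPDH, LDHA, PGAM and enolase genes have close copies in mammalian genomes, so reads shared with such copies are an uncertainty of these levels.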

How the data were processed

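RNA from 1 muscle of each of 11 pigs was sequenced as single-end reads in 5 technical repetitions, per the labels' design text, and each pig has 1 deposited column. The values are expected counts (estimated reads per gene or isoform, not normalised), which the authors deposited without decimals. The submitters' processing notes list CASAVA 1.8.2, FastQC, STAR, RSEM, edgeR, DESeq2 and Sscrofa10.2 without saying what each did. Whether strand was used in counting is not given in the sources used here. Columns were matched to pigs by the number in the sample title, and 0 columns belonged to other samples. A reference table of symbols named 11804 of 25322 gene rows, and unnamed rows held 20.7% of counts.

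All genes were fitted at once in edgeR 4.0.16 (R 4.3.3) on the rounded counts, with filterByExpr on the group, TMM factors and the quasi-likelihood F test for fibre group, at a Benjamini-Hochberg adjusted p of 0.05. The SE is the size of the log2 fold change over the square root of F. Correlations used log2 CPM with a prior count of 2. Isoforms were fitted likewise. Isozyme shares had a permutation test, exact and two-sided, whose smallest p is 0.003, and a family with fewer than 2 counted genes was left out, which left 5 of 6. Alternatives were RLE, upper-quartile or no factors, scaling without the 10 most abundant genes, other filters (none, or 1 CPM in 4 pigs or more), DESeq2 1.42.0, limma-voom (limma 3.58.1) with and without quality weights, and leaving out each pig, or fibre1 pigs 5 and 6 together. Leaving out fibre1 pigs 5 and 6 together was a setting chosen after seeing the data. They were the highest fibre1 pigs for most of the 10 genes, so leaving them out lowers the fibre1 means of those genes. Scripts were tested on simulated data.

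All 10 members and PGK1 are named, with listed pathway genes that passed and, of the others, at most 2 per role by mean CPM. A few genes meeting these criteria are left unreported. The members and lists were chosen with earlier results of these data known. The pigs are separate animals, so p-values set the group difference against the spread between animals.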

Additional observations from a re-analysis of the deposited data

Results flagged for a closer look

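A sample far from the rest was looked for in 33 groups of values (the gap to the nearest pig over the range of the group, set against Dixon's 95% value) and found in 3, where chance flags about 1 in 20 groups. GAPDH stood at 38466 CPM in fibre2B pig 10, with the other 3 fibre2B pigs between 28685 and 30234 CPM. The 10 genes together held 7.23% of all counts in fibre1 pig 1, below the other 6 fibre1 pigs at 9.81% to 11.3%. The PKM share of pyruvate kinase counts was 99.99917% in fibre2B pig 11 and 100% in the other 3 fibre2B pigs, a gap made by the 1 count on PKLR.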

How the results depend on the processing

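No paired analysis was possible because no replicate number occurs in both groups. The count of genes that passed, 1021, was 157 with library totals, 1740 with DESeq2, 1748 with quality weights, 28 without fibre1 pigs 5 and 6, and from 0 (without fibre2B pig 14) to 1548 (without fibre1 pig 12) when each pig was left out. Of the 10 members 0 passed in each setting run except DESeq2, where 1 did. The difference in their summed share was 2.12 points of the TMM-scaled total and, in a setting chosen after seeing the data, -0.0315 points without fibre1 pigs 5 and 6. Log2 fold changes reversed with library totals for GAPDH (-0.0176), LDHA (-0.151), FBP2 (-0.0824), PGK1 (-0.161) and ENO2 (-0.172); with upper-quartile factors for PGK1 (-0.0059); with quality weights for LDHA (-0.0276), FBP2 (-0.0318), PGK1 (-0.0208) and ENO2 (-0.122); with limma-voom for ENO2 (-0.0954); and without fibre1 pigs 5 and 6 for GAPDH (-0.0555), LDHA (-0.0121) and ENO2 (-0.201). Leaving out each pig gave ranges that cross 0 for LDHA (-0.0079 to 0.165), HK3 (-0.465 to 0.155), FBP2 (-0.0113 to 0.283), TIGAR (-0.288 to 0.0242), ALDOC (-0.263 to 0.0763), PGK1 (-0.0631 to 0.149) and ENO2 (-0.171 to 0.330). In the same way the difference in share lay from -0.0120 to 0.0103 points for ENO3, from 0.0193 to 0.0272 for PGAM2, from -0.106 to 0.254 for PFKM, from 1.97 to 7.45 for HK2 and from 0 to 0.000276 for PKM. As log2 ratios within a pig these differences were 0.0195 for ENO3 and 1.11 for PKM (exact permutation, adjusted p = 0.030); with at most 1 count on PKLR and a pseudocount of 1, the ratio for PKM is in effect the unscaled PKM count. The cause of the other changes was not tested. HK2 and PFKFB3, with 16 to 251 counts per pig, have the least depth of the 10.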
